A study of Capra hircus with 2 samples.

Results

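miR-126 is a microRNA (miRNA), a short RNA that guides the repression of messenger RNAs by base pairing, made from a hairpin whose 2 arms give miR-126-5p and miR-126-3p. It is known as a miRNA of endothelial cells, the cells that line blood vessels. Entries were taken as miR-126 where the name of their representative miRNA, without species prefix, copy number and arm, was miR-126. This gave 3 of 2599 entries in the CD49f-positive library and 2 of 2338 in the CD49f-negative library, which together form 2 of 1808 named miRNA arms. Entries were picked by name only, without read numbers, but miR-126 itself was chosen with earlier results of these data known.

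The cells came from 3 testes of 3 dairy goats of the Saanen breed, 5 months old, and were released by enzyme digestion. Cells that had not attached after a night of plating were sorted with magnetic beads into CD49f-positive and CD49f-negative cells. CD49f is integrin alpha-6, a laminin receptor used to enrich spermatogonial stem cells and also carried by other cells that rest on a basement membrane, endothelial cells among them. Both groups share animals, digestion and plating, each has 1 library here, and whether the goats were pooled is not stated. No difference therefore has a replicate check, no p-value is given, and the intervals are 95% intervals of counting error only. Copies made by PCR cannot be told from separate molecules here, so even that error is a lower limit. In sorted bulk cells, fewer cells of a type and less RNA per cell cannot be told apart.

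In mammals the miR-126 hairpin lies in an intron of EGFL7, a gene for a protein secreted by endothelial cells. In mouse and zebrafish miR-126-3p lowers SPRED1 and the phosphoinositide 3-kinase subunit PIK3R2, which restrain signalling from vascular endothelial growth factor, and vessels without miR-126 leak. In mouse vessels miR-126-5p lowers the Notch ligand DLK1. Platelets and blood progenitor cells also carry miR-126.

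The sequences are shown first, because the start of a miRNA sets its seed, the bases 2 to 8 that pair with targets. The goat hairpin in the deposited tables is 82 bases long and lies on a contig named C65391372, bases 61 to 142, minus strand, of a genome build that is not given in the sources used here. Capitals mark the 5p arm, bases 14 to 34, and the 3p arm, bases 51 to 71.
goat miR-126 hairpin: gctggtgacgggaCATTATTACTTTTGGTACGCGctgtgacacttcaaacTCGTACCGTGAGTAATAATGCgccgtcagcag
Both arms are 21 bases long with 16 bases between them, and 17 of the 21 bases of each arm pair with the other arm in the fold the authors deposited. The deposited free energy of this fold was -38.6 kcal/mol, close to the median of -37.9 kcal/mol over 480 named hairpins placed on the genome. Its GC content was 50%, against a median of 48.2%. The hairpin matched 12 miRBase hairpins, and the representative one was bovine. Against that 73-base bovine hairpin, with positions counted from its 5′ end, the goat hairpin had 1 substitution, T69C, which lies outside both arms. The RefSeq gene table of the goat assembly ARS1.2 lists an 82-base MIR126 within the span of EGFL7. Its coordinates belong to another build and are not given here.

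The sequence the authors list for each arm in each library is set below beside the bovine reference, with the seed in capitals. The reference of the 5p arm equals the 5p sequence listed for the CD49f-negative library.
miR-126-3p, both libraries: tCGTACCGtgagtaataatgc
miR-126-3p, bovine reference: cGTACCGTgagtaataatgcg
miR-126-5p, CD49f-positive library: cATTATTActtttggtacgcga
miR-126-5p, CD49f-negative library: cATTATTActtttggtacgcg
The listed miR-126-3p was the same in both libraries, began 1 base before the bovine reference and ended 1 base before it. Its seed is therefore cgtaccg, whereas that of the bovine reference is gtaccgt. None of the 3179 other listed sequences with a miRNA name carried the seed cgtaccg or the 5p seed attatta. The seed gtaccgt was found in 1 other sequence, under the name miR-2384-3p, with 1 read. At the placed hairpin the listed 5p seed was the same in both libraries, while the end of the listed 5p sequence differed. In the CD49f-positive library it had an extra base that differed from the hairpin, C22A, counted from the 5′ end of the 22-base sequence.

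miR-126-3p took a larger share of the miRNA reads in CD49f-positive cells. It had 107917 reads in the CD49f-positive library, which is 1.32% of the reads assigned to named miRNAs (interval 1.31 to 1.32), and 21312 reads in the CD49f-negative library, which is 0.695% (0.686 to 0.705). The libraries held 8196507 and 3064462 such reads, so the CD49f-positive library was 2.67 times deeper, and only shares were compared. The share was 1.89 times as large in CD49f-positive cells (1.87 to 1.92), a log2 ratio of 0.92 (0.90 to 0.94). The intervals of the libraries lie far apart, but they leave out the spread between animals and preparations.

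miR-126-5p, the minor arm, differed by about as much. It had 9691 reads or 0.118% in the CD49f-positive library (0.116 to 0.121) and 1829 reads or 0.0597% in the CD49f-negative library (0.0570 to 0.0625). Its share was 1.98 times as large in CD49f-positive cells (1.88 to 2.08), a log2 ratio of 0.99 (0.91 to 1.06). The interval of this arm holds the 2-fold line, and that of miR-126-3p lies below it.

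**Figure D1:**
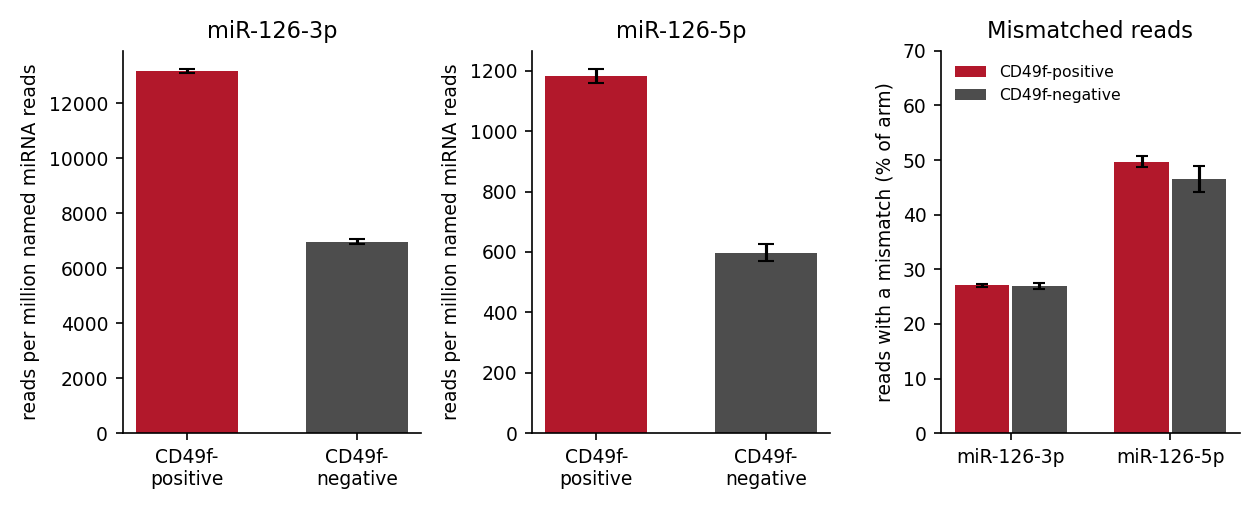
Level of each miR-126 arm in reads per 1000000 named miRNA reads (left and middle; the vertical scales differ) and the percent of the arm's reads with a mismatch (right), 1 library per bar, with exact 95% counting intervals. Both arms stand higher in the CD49f-positive library, at 13166 and 1182 reads against 6955 and 597, while their mismatched shares are close.

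The rank of miR-126-3p differed between the libraries. It was the 10th most abundant arm of the CD49f-positive library and the 20th of the CD49f-negative library. In the CD49f-positive library it followed let-7a-5p at 1.33% (1.32 to 1.33), whose interval overlaps its own, and preceded let-7g-5p at 1.22% (1.21 to 1.22), whose interval does not. In the CD49f-negative library it stood between miR-24-3p at 0.717% (0.708 to 0.727) and miR-30a-5p at 0.656% (0.647 to 0.666), both outside its own interval. miR-126-5p ranked 51st in CD49f-positive cells, where its interval overlaps those of miR-145-5p at 0.123% (0.120 to 0.125) and miR-186-5p at 0.115% (0.112 to 0.117). In CD49f-negative cells it ranked 72nd, and its interval overlaps those of miR-340-5p at 0.0616% (0.0589 to 0.0645) and miR-28-5p at 0.0575% (0.0548 to 0.0602). Read shares of different miRNAs also carry the preferences of the library preparation, so these orders are orders of reads.

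A miRNA arm was called higher or lower where it had at least 100 reads in all, differed by 2-fold or more, and had an interval clear of equal shares. Neither miR-126 arm met this rule by the share of reads, nor did most other arms: 6 of 298 arms were called higher, or 2.01%, and 74 were called lower, or 24.8%. The median log2 ratio of the 298 arms was -0.43, so miR-126-3p stood well above the middle of all arms. A higher log2 ratio than that of miR-126-3p was found for 8 of the 298 arms, and a higher one than that of miR-126-5p for 6. Among 140 arms with at least 1000 reads, miR-126-5p and miR-1468-5p had higher ratios than miR-126-3p. Among the 10 arms with at least as many reads over both libraries as miR-126-3p, itself included, miR-126-3p had the highest ratio. This cut was set by its own reads.

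**Figure D2:**
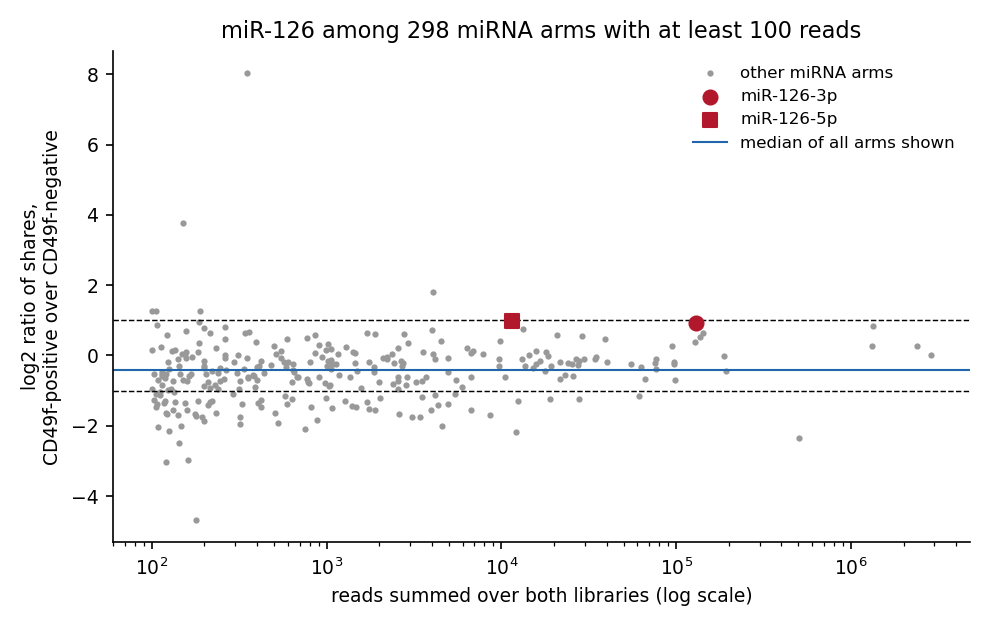
Log2 ratio of read shares, CD49f-positive over CD49f-negative, against the reads summed over both libraries (log axis) for 298 miRNA arms with at least 100 reads. Dashed lines mark 2-fold, and the blue line marks the median of -0.43. The miR-126 arms lie at 0.92 and 0.99, just under the upper dashed line.

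The call depends on how the libraries are scaled to each other. TMM scaling, which trims extreme miRNAs before it matches the libraries, raised every log2 ratio by 0.44, to 1.37 for miR-126-3p and 1.43 for miR-126-5p. Both arms were then called higher, beside 9.06% of all arms called higher and 13.4% called lower. Median-of-ratios scaling gave 1.52 and 1.59, with 11.4% of all arms called higher and 9.4% lower. A total without the 10 most abundant miRNAs of either library gave 1.21 and 1.28, with 5.03% called higher and 19.1% lower. miR-126-3p, 10th in the CD49f-positive library, was itself left out of that total, which raises both ratios. Both miR-126 arms were called higher under these scalings too. miR-34c-5p, a miRNA of germ cells in and after meiosis, held 2.13% of the CD49f-positive reads and 10.9% of the CD49f-negative reads, and so moves the shares of all other miRNAs. With the miR-34 and miR-449 arms left out of the total, a choice made after their shares were seen, the log2 ratio was 0.78 (0.76 to 0.80) for miR-126-3p and 0.84 (0.77 to 0.92) for miR-126-5p. Both arms had ratios above 1 under each setting tried. The log2 ratio ran from 0.67 to 1.74 for miR-126-3p and from 0.83 to 1.81 for miR-126-5p.

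**Figure D3:**
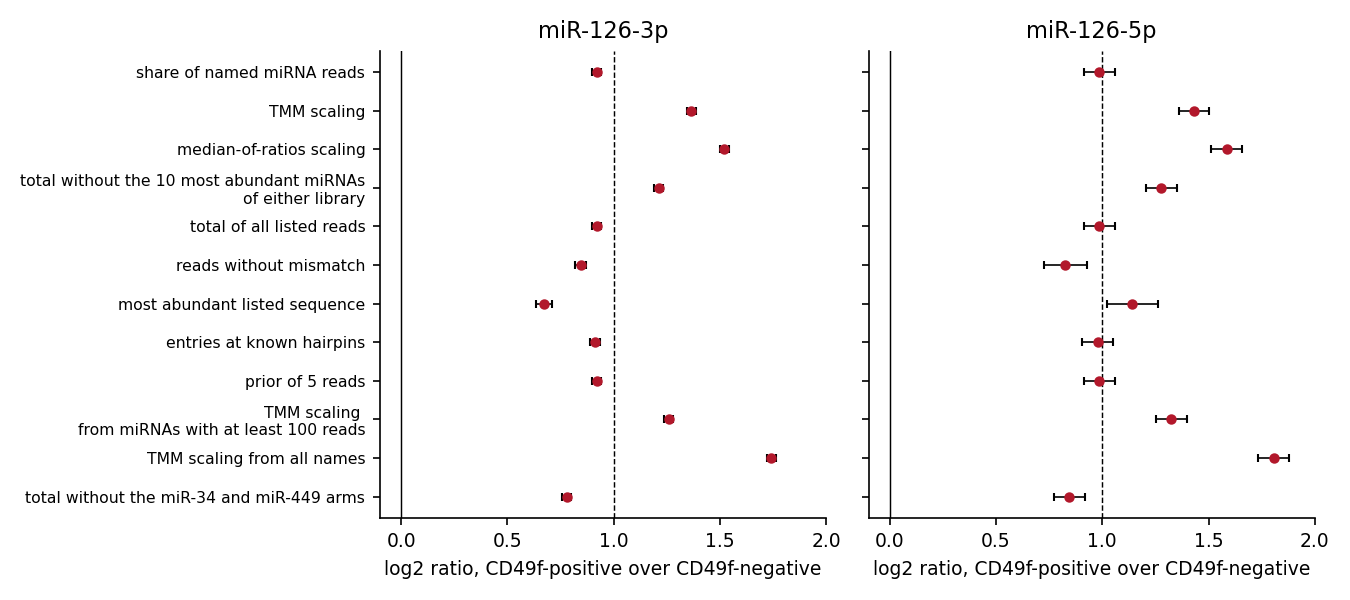
Log2 ratio (CD49f-positive to CD49f-negative) of each miR-126 arm under the share of named miRNA reads (top) and 11 other settings, with 95% counting intervals. The solid line marks equal levels and the dashed line 2-fold. The points lie to the right of 0 in each row and fall on either side of 2-fold.

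Ratios of miR-126-3p to other miRNAs of the same library need no scaling. For each read of miR-143-3p, a smooth muscle and fibroblast miRNA, the CD49f-positive library had 0.0595 miR-126-3p reads and the CD49f-negative library 0.0377, a log2 ratio of 0.66 (0.64 to 0.68, Woolf interval). Set against miR-451-5p, a red blood cell miRNA, the values were 8.19 and 3.54 reads, a log2 ratio of 1.21 (1.16 to 1.26). Set against miR-142-5p, a white blood cell miRNA, they were 181 and 55.4 reads, a log2 ratio of 1.71 (1.52 to 1.90). Set against miR-202-5p, a miRNA of the gonads, they were 43.1 and 8.73 reads, a log2 ratio of 2.30 (2.22 to 2.39). The widest of these gaps was to miR-34c-5p, where the values were 0.619 and 0.0640 reads, 3.28 apart on the log2 scale (3.25 to 3.30). Set against miR-10b-5p the values were almost alike, at 0.0970 and 0.0921 reads, 0.08 apart on the log2 scale (0.05 to 0.10). Other miRNAs of the same cell types gave other sizes. The log2 ratio was 1.35 against miR-140-3p, also of the gonads, and 1.62 against miR-342-3p, also of white blood cells. It was 1.11 against miR-199b-5p, also of fibroblasts, and 1.27 against miR-486-5p, also of red blood cells. The size of the miR-126-3p difference thus depends on the miRNA it is set against, also within a cell type.

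The balance of the arms was nearly the same in both libraries. The 3p arm held 91.8% of 117608 CD49f-positive miR-126 reads (91.6 to 91.9) and 92.1% of 23141 CD49f-negative ones (91.7 to 92.4). There were 11.1 and 11.7 reads of miR-126-3p for each read of miR-126-5p, and the log2 ratio of these values was -0.07 (-0.14 to 0.01, Woolf interval). Over 167 hairpin names with at least 100 reads in each library and reads on both arms over the libraries together, the median absolute log2 difference in arm balance was 0.57, and only 3 names had a smaller difference than miR-126. Many of these names have few reads on their minor arm, which widens their log2 differences by counting error. In percent points miR-126 stood less apart. Its 3p share differed by -0.34 points, CD49f-positive minus CD49f-negative, against a median absolute difference of 0.61 points. The minor arm of miR-126 was rather abundant: it held 8.24% and 7.90% of the reads, against a median of 1.03% and 1.19% over these names, and 37 and 48 names had a larger minor arm. Of the 167 names, 61 were mostly 3p in both libraries, as miR-126 was, and 101 mostly 5p. The remaining 5 had another main arm in each library.

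**Figure D4:**
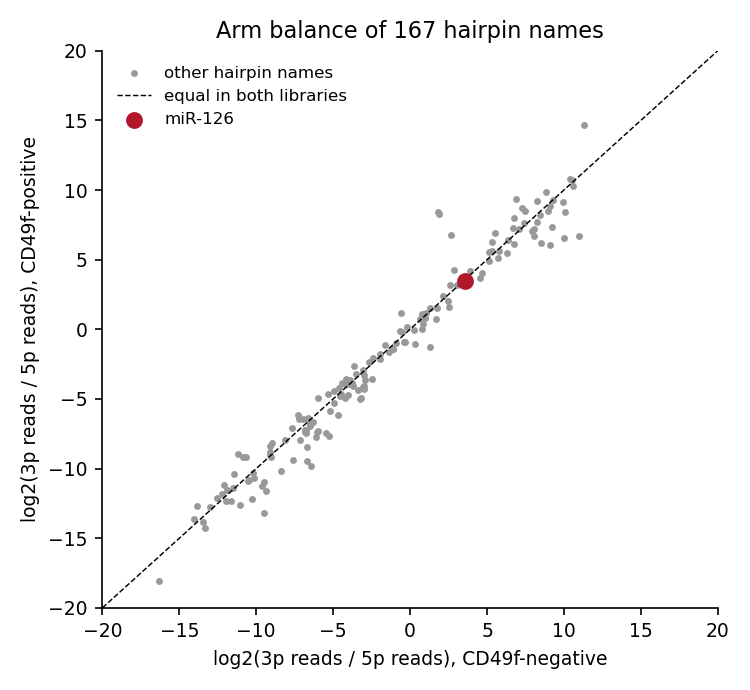
Log2 of 3p reads over 5p reads in the CD49f-positive library (vertical) against the CD49f-negative library (horizontal) for 167 hairpin names. The dashed line marks equal balance. miR-126, at 3.48 and 3.54, lies almost on the line.

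Reads with mismatches made up a similar part of miR-126-3p in both libraries and a larger part of miR-126-5p. For miR-126-3p the share was 27.1% of CD49f-positive reads (26.8 to 27.4) and 26.9% of CD49f-negative reads (26.3 to 27.5), and these intervals overlap. For miR-126-5p it was 49.6% (48.6 to 50.6) and 46.5% (44.2 to 48.8), whose intervals overlap slightly. Over 202 arms with at least 100 reads in each library the median was 19.7% and 26.6%. Of these arms, miR-126-3p exceeded 123 in the CD49f-positive and 102 in the CD49f-negative library, and miR-126-5p 167 and 160. Counting only reads without mismatch, miR-126-3p had 78667 and 15574 reads and miR-126-5p 4880 and 978. The library totals were then also limited to named reads without mismatch. On that scale the log2 ratios of the arms were 0.84 (0.82 to 0.87) and 0.83 (0.73 to 0.93), still above 0. Reads with mismatches made up 32.7% of all named reads in the CD49f-positive and 36.0% in the CD49f-negative library. This setting therefore also changes how the libraries are scaled to each other.

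The listed sequences cover only part of each arm. The listed miR-126-3p sequence was read 32433 times in the CD49f-positive library, 41.2% of the arm's reads without mismatch (40.9 to 41.6), and 7604 times in the CD49f-negative library, 48.8% (48.0 to 49.6). The other 46234 and 7970 reads without mismatch had other ends, and their sequences are not listed. The listed form of miR-126-3p thus made up less of the arm in CD49f-positive cells, and this sequence alone gave a log2 ratio of 0.67 (0.64 to 0.71), lower than the whole arm. For miR-126-5p the listed form with the extra end base had 3918 copies in the CD49f-positive library, 40.4% of the arm and 81.5% of its reads with mismatch. The form listed in the CD49f-negative library had 665 copies, 36.4% of that arm and 68.0% of its reads without mismatch. These are different sequences, and how often each occurs in the other library is not listed. The setting that uses the most abundant listed sequence therefore sets unlike 5p sequences against each other. A last base that is A and differs from the hairpin occurred in 5 of 227 listed sequences at placed hairpins with at least 100 reads in the CD49f-positive library, miR-126-5p among them, and in 3 of 187 in the CD49f-negative library.

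All miR-126-3p reads lay at the placed hairpin. One further 5p entry, in the CD49f-positive library, had 1 read, 1 mismatch and no place on the genome. Its listed sequence begins before the other 5p forms and has the seed ggggcat. This read is included in the 9691 reads of miR-126-5p and the 117608 reads of both arms.

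The name endothelial can be checked only against other miRNAs, since these libraries hold no messenger RNA or protein, and thus neither CD49f nor endothelial marker genes. miR-139, the other member of the endothelial list, was scarce. miR-139-5p had 207 CD49f-positive and 56 CD49f-negative reads, a log2 ratio of 0.46 (0.03 to 0.92), and 0% of its reads lay at a placed known hairpin. miR-139-3p had 43 and 13 reads, under the minimum. The list thus had 3 measured arms, miR-139-5p and the 2 arms of miR-126. All had ratios above 1, as had 75 of all 298 arms, or 152 with TMM. None was called higher, against 2.01% of all arms. With TMM the 2 miR-126 arms were called higher, against 9.06% of all arms, and miR-139-5p was not. Counts that rest on miR-126 itself cannot check its name. Its median log2 ratio of 0.92 is the value of miR-126-3p itself. The summed share of the list was 1.44% of CD49f-positive and 0.757% of CD49f-negative reads, nearly all of it miR-126.

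A longer list named 25 miRNAs linked to blood vessel growth. Of its 33 measured arms 0 were called higher and 8 lower, where 2.01% of all arms were called higher and 24.8% lower. With TMM 4 were called higher and 3 lower, where 9.06% and 13.4% of all arms were. Ratios above 1 were found for 9 of the 33 arms and 75 of all 298, or 21 and 152 with TMM. Its median log2 ratio was -0.20, or 0.25 with TMM, against -0.43 and 0.02 for all arms. The share of this list called lower was thus near that of all arms. miR-100-5p, its most abundant arm, took 25.4% of the reads in both libraries. miR-10b-5p, whose gene sits among the HOX genes, held 13.6% of CD49f-positive and 7.55% of CD49f-negative reads, a log2 ratio of 0.85 (0.84 to 0.85).

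The other lists covered cells that carry miR-126, lie beside vessels or make up the testis. The list for platelets and megakaryocytes held miR-126, miR-223 and miR-326, and apart from miR-126 no arm of it reached 100 reads. miR-223-3p had 18 CD49f-positive and 5 CD49f-negative reads, and miR-326-3p 26 and 13. White blood cell miRNAs summed to 0.0616% and 0.0926% of the reads, with 0 of 5 measured arms called, against 2.01% of all arms called higher and 24.8% lower. Their median log2 ratio was -0.72, or -0.28 with TMM, against -0.43 and 0.02 for all arms. In that list miR-342-3p had a log2 ratio of -0.70 (-0.78 to -0.62), and miR-142-5p, whose reads lay at no placed known hairpin, one of -0.79 (-0.98 to -0.60). miR-155-5p stood at 0.59 (0.35 to 0.85), or at 1.04 and called higher with TMM. Red blood cell miRNAs summed to 0.296% and 0.372%, with 0 of 3 arms called and a median of -0.35, or 0.10 with TMM. In it miR-451-5p had a log2 ratio of -0.29 and miR-486-5p, whose reads lay at no placed known hairpin, one of -0.35. Both turned above 0 with TMM, at 0.15 and 0.10.

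The list for perivascular, smooth muscle and fibroblast miRNAs took 23.1% of CD49f-positive and 19.5% of CD49f-negative reads. Nearly all of this was miR-143-3p alone, at 22.1% and 18.4%. Of the list's 10 measured arms 0 were called higher and 3 lower, beside 2.01% and 24.8% of all arms. With TMM 1 was called higher and 0 lower, beside 9.06% and 13.4% of all arms. The median log2 ratio was -0.27, or 0.17 with TMM. The log2 ratio was 0.26 (0.26 to 0.27) for miR-143-3p and -0.19 for miR-199b-5p, or 0.26 with TMM for miR-199b-5p. The arms of miR-145 went opposite ways: miR-145-5p stood at -1.24 and was called lower, while miR-145-3p stood at 0.56. With TMM only miR-145-3p was called, as higher, at 1.01, and miR-145-5p stood at -0.79. The gonadal list had 1 of 4 arms called lower, miR-202-5p at -1.38, where 24.8% of all arms were called lower, and the call was lost with TMM. Its median was -0.65, or -0.20 with TMM, against -0.43 and 0.02 for all arms. In it miR-140-3p had a log2 ratio of -0.43, or 0.01 with TMM. The meiotic and post-meiotic germ cell list took 2.25% and 11.4% of the reads, with 7 of 7 arms called lower under both scalings, where 24.8% of all arms were called lower by read share and 13.4% with TMM. In it miR-34c-5p had a log2 ratio of -2.35 and miR-449a-5p one of -2.18. The part of these lists in the miR-126 difference was not tested.

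**Figure D5:**
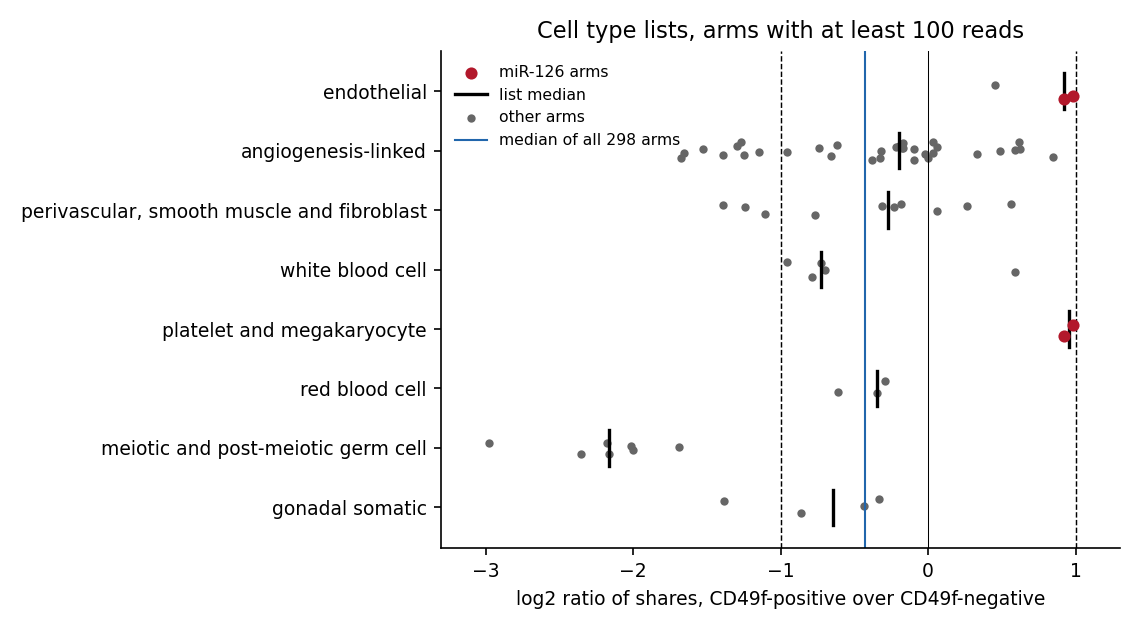
Log2 ratio (CD49f-positive to CD49f-negative) of each measured arm of 8 cell type lists, with the list median as a black bar and the median of all 298 arms as a blue line. The miR-126 arms, which stand in the endothelial and the platelet list, lie at 0.92 and 0.99, and 7 germ cell arms lie below -1.

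The arms with at least 1000 reads whose log2 ratio was nearest to the 0.92 of miR-126-3p, over these 2 libraries, were miR-126-5p, miR-10b-5p, miR-181a-5p, miR-224-5p and let-7d-5p. Their absolute differences in log2 ratio from miR-126-3p were 0.07, 0.08, 0.16, 0.19 and 0.29. miR-181a-5p, with 10902 CD49f-positive and 2412.5 CD49f-negative reads, stood at 0.76 (0.69 to 0.82) on the log2 scale. miR-224-5p, with 3272 CD49f-positive and 739 CD49f-negative reads, stood at 0.73 (0.61 to 0.84). Reads that fit several hairpins are split between them, which gives let-7d-5p fractional counts; it stood at 0.63 (0.46 to 0.81). With 1 library per group, this likeness rests on a single ratio for each arm.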

How the data were processed

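Small RNA was sequenced from CD49f-positive and CD49f-negative goat testicular cells, 1 library each, grouped by label. The series text speaks of triplicates, but 1 library per group was used here. Per the file headers, reads were aligned by the authors to miRBase hairpins of mammals, a goat genome and expressed sequences. No source used here names the aligner or builds. The deposited reads per arm are expected counts, since reads fitting several hairpins are divided among these. Copies of each listed sequence are whole counts, as deposited. Hairpin GC content is a percent and the free energy index a score, per the file headers.

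Reads were summed per miRNA name and arm. Unnamed entries, 0.555% and 0.611% of listed reads, stayed out. Ratios are shares of named reads with 0.5 reads added. Intervals are exact 95% Clopper-Pearson intervals, conditional for ratios, of counts rounded to whole reads. Ratios within a library have Woolf intervals. edgeR 4.0.16 (TMM) and DESeq2 1.42.0 (median of ratios), in R 4.3.3, gave scaling factors only, from miRNAs with at least 10 reads. Other steps ran in Python 3.11.15 (SciPy 1.17.1, pandas 2.3.3, numpy 2.4.6; figures: matplotlib 3.10.9). Calling was tested on simulated data with counting error only, so that test does not cover the spread between animals or preparations.

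Named were both miR-126 arms, the 5 arms nearest in ratio, the 2 most abundant measured arms of each list and sequences that share a seed. miR-139, miR-145, miR-155-5p, miR-223, miR-326, miR-1468-5p and rank neighbours were named after their values were seen. The members and lists were chosen with earlier results of these data known.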

Additional observations from a re-analysis of the deposited data

How the results depend on the processing

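Both miR-126 arms kept ratios above 1 under all 11 other settings. The log2 ratios of miR-126-3p and miR-126-5p were 1.37 and 1.43 (TMM), 1.52 and 1.59 (median of ratios), and 1.21 and 1.28 without the 10 most abundant miRNAs of either library (13 names, miR-126-3p among them). They were 0.84 and 0.83 over reads without mismatch, a limit set on the arms and on the library totals alike. For the most abundant listed sequence, which for the 5p arm is a different sequence in each library, they were 0.67 and 1.14. Among settings added after the data were seen, TMM from miRNAs with at least 100 reads gave 1.26 and 1.33, TMM from all names 1.74 and 1.81, and a total without the miR-34 and miR-449 arms 0.78 and 0.84. The cause of these shifts was not tested beyond the scaling itself.

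The 3p arm share was 94.2% in CD49f-positive and 94.1% in CD49f-negative cells over reads without mismatch, and 89.2% (88.9 to 89.5) and 92.0% (91.4 to 92.5) by the most abundant listed sequences. The intervals of the last setting lie apart, but its 5p sequences differ between the libraries, so it does not compare the balance of the arms. Of all arms, TMM called 27 higher and 40 lower, the median of ratios 34 and 28, and 15 higher without the 10 most abundant. A minimum of 10 reads gave 10 higher and 158 lower, one of 1000 reads 1 and 26, and none 10 and 196. Entries at known hairpins gave 2 higher.

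No library was left out. No paired analysis was possible because each group has 1 library. By read share the counting interval of miR-126-5p spans the 2-fold line, and the spread between animals is not measured.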
